A study of Capra hircus with 3 samples.

Results

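The 3 genes described here, PENK, GAL and CHGA, encode precursors or packaging proteins of secreted peptides, and they were 3 of the 16739 genes listed for fetal skin cells of the cashmere goat (Capra hircus). They were chosen by name, with earlier values of these data known: the stage differences of PENK and GAL in dermal cells were part of what chose them. Those differences are therefore given as descriptions. PENK encodes preproenkephalin, which is cut into the enkephalins, peptides that act on opioid receptors. GAL encodes the precursor of galanin, a peptide that acts on the receptors GALR1, GALR2 and GALR3. CHGA encodes chromogranin A, an acidic protein of dense-core secretory granules that is widely used as a marker of neuroendocrine cells and, in skin, of Merkel cells, the touch-sensing cells of the epidermis. Peptide precursors of this kind are cut by prohormone convertases, trimmed by carboxypeptidases and often amidated before release. Transcript counts do not show whether a peptide was made or released.

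The cells came from back skin of Northern Shaanxi White Cashmere goat fetuses at E60, E90 and E120, which the study's design text calls the induction, organogenesis and cytodifferentiation stages of the hair follicle. No genetic change or treatment of the fetuses is named in the labels. Each stage was 1 library of 3′ 10x Genomics version 3 chemistry, made from pooled cells of at least 2 fetuses, so no stage has a replicate and no test between stages was made. Whole skin was dissociated with collagenase at E60 and E90, whereas the E120 cells came from follicles picked out with forceps and were freed with TrypLE. Differences of E120 from the earlier stages and differences in preparation cannot be told apart. Because cells were pooled, fewer cells of a type and less RNA per cell also cannot be told apart in the whole-library sums.

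The E60, E90 and E120 libraries held 6849, 6931 and 6896 cells, with medians of 8579, 3714 and 13064 unique molecular identifiers (UMIs) per cell. The E90 library stood apart by its low depth and by a median share of mitochondrial counts of 11.1%, against 4.52% at E60 and 5.26% at E120. Cells were clustered within each library without the genes discussed here, and 62 of 82 clusters could be named from marker genes. Classes are written with "-like" because the names were rebuilt from markers, and differences from the study may come from those names. The unnamed clusters took up 26.0% of the E60 cells, 57.0% of the E90 cells and 26.4% of the E120 cells. No E60 cluster was epithelial-like in the main clustering, so levels in epithelium could be described at E90 and E120 only. 32 cell barcodes occurred in 2 libraries and 0 in 3.

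Levels are given as CPM, the gene's UMIs in a sum of cells after that sum is scaled to a total of 1000000 UMIs. Intervals after a CPM value are exact 95% Poisson intervals, those after a percentage of cells exact 95% binomial (Clopper-Pearson) intervals, and those after a ratio are exact and conditional on the summed count. They cover counting error only, not the spread between fetuses.

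In whole libraries the PENK level at E60 was 283 CPM (279 to 287), that at E90 334 CPM (328 to 341) and that at E120 3.07 CPM (2.73 to 3.45). The E120 level was 109-fold (96.7 to 123) below that of E90. For GAL the E60 library gave 12.0 CPM (11.2 to 12.9), the E90 library 2.05 CPM (1.57 to 2.62) and the E120 library 11.4 CPM (10.7 to 12.1). The first and last of these GAL values had a ratio of 0.9497 (0.865 to 1.04), so counting error alone spans their difference, and the lowest value was that of the shallow E90 library. For CHGA the same libraries gave 0.892 CPM (0.677 to 1.15), then 19.1 CPM (17.6 to 20.8), then 2.68 CPM (2.36 to 3.03). PENK was thus high in the E60 and E90 libraries, GAL in those of E60 and E120, and CHGA in that of E90.

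The order of PENK between E60 and E90 depended on scaling. Its log2 ratio of CPM + 1 was 0.24, but -0.28 when libraries were scaled by the median of ratios over genes, which shifts all genes by -0.52 on the log2 scale for that pair and by 0.48 for E120 against E90. The E120 to E90 log2 ratio of PENK was -6.36 by CPM and -5.92 by median of ratios. GAL and CHGA kept their directions between consecutive stages under both scalings. Of the 3 genes only PENK reached 20 CPM in a whole library. Among all genes that did so at E60 or E90, 27.1% differed 2-fold or more, 18.2% being higher and 8.89% lower at E90. Between E90 and E120 33.8% did, 11.3% being higher and 22.5% lower at E120, and PENK was among the latter.

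**Figure D1:**
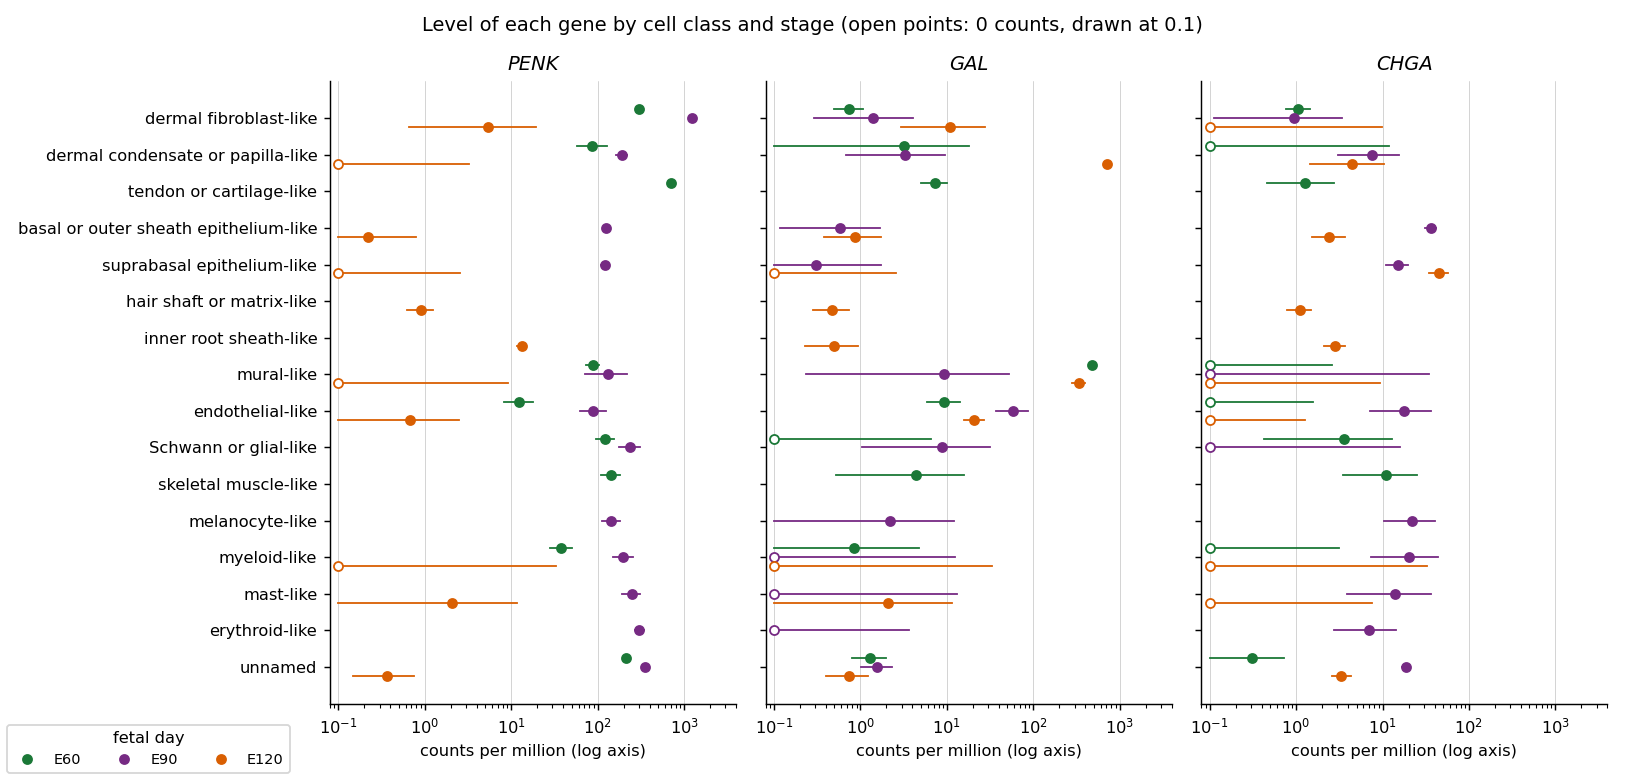
Level of PENK, GAL and CHGA in each named cell class and in unnamed cells, in CPM on a log axis, coloured by stage (E60 green, E90 purple, E120 orange); lines are 95% Poisson intervals and open points are sums with 0 counts, drawn at 0.1. PENK is highest in dermal fibroblast-like cells of E90 (1241 CPM), and GAL in papilla-like cells of E120 (719 CPM) and mural-like cells of E60 (474 CPM). CHGA is highest in suprabasal-like cells of E120 (44.9 CPM) and basal or outer sheath-like cells of E90 (36.0 CPM). The E120 CHGA value came from cells that the finer clustering did not name suprabasal.

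Among named classes PENK was highest in tendon or cartilage-like cells at E60, with 707 CPM (683 to 731) in 522 cells. At E90 it was highest in dermal fibroblast-like cells. The 3998 dermal fibroblast-like cells of E60 gave 11214 counts, 297 CPM (291 to 302), and the 312 of E90 gave 2659 counts, 1241 CPM (1194 to 1289). At E120 it was 2 counts in 66 fibroblast-like cells, 5.40 CPM (0.653 to 19.5). The E90 level was 4.18-fold (4.01 to 4.37) that of E60, and the ratio of E90 to E120 was 230 (63.6 to 1900), an interval set by the 2 counts at E120. With cells classed by their own marker counts the former ratio was 2.18 (2.11 to 2.25). The latter was 63.3 (11.4 to 2501) by joint clustering, from 1 count at E120, and at least 88.8 without the top doublet scores, where E120 had 0 counts. In the main clustering 2470 of the 2659 E90 counts lay in 1 cluster led by CCBE1, described below, at 1964 CPM. A second E90 cluster of the class, led by COCH, was at 296 CPM, near the E60 value, and the rest of the class was lower. Different clusters hold this class at the 3 stages. It comprised 9 clusters of the E60 library, 3 of the E90 library and a single E120 cluster, led by COL11A1, COL1A2 and TNMD, in which 23 of 66 cells had doublet scores among the top 6% of their library.

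The dermal condensate or papilla-like cells, the fibroblasts that gather under and inside the follicle, held less PENK at E60 and E90 than the summed fibroblast-like cells. Their PENK was 86.9 CPM (57.3 to 127) in 41 cells of E60, 191 CPM (163 to 221) in 187 cells of E90, and 0 counts in 158 cells of E120. At E90 the fibroblast-like level was 6.51-fold (5.59 to 7.63) the papilla-like one, but 1.12-fold (0.908 to 1.38), an interval that includes 1, without the cluster led by CCBE1 described below. Against a floor of 3 counts in that E120 sum, the E90 level was at least 72.1-fold higher. With fibroblast-, papilla- and tendon-like cells taken as 1 dermal group, the PENK level at E60 was 340 CPM (335 to 346), that at E90 was 926 CPM (892 to 961), and the 2 counts of E120 gave 1.33 CPM (0.161 to 4.80). This dermal E90 value was 622 CPM when cells were classed by their own marker counts, which placed 1966 rather than 312 E90 cells among the fibroblast-like.

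Within the dermis of each stage PENK was uneven. At E60 its highest cluster held 1132 CPM (1090 to 1175) in 306 cells led by CCL11, MGP and CYTL1. That cluster was nearest to tendon or cartilage at the main resolution and to dermal fibroblasts in the finer clustering, where 247 of these cells had 1402 CPM (1350 to 1456). An unnamed cluster of 219 cells led by ALDH1A1, CADM3 and ANGPT1, whose closest class was dermal fibroblast, had 792 CPM (751 to 835). The named fibroblast-like clusters of E60 led by CHN1 and IGFBP5 (851 cells) or by replication genes such as MCM5 (441 cells) held 428 CPM (413 to 443) and 416 CPM (399 to 435). PENK was thus present across E60 dermal clusters, with the highest levels in the CCL11 and ALDH1A1 clusters.

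At E90 a single cluster stood out. Its 173 cells, led by CCBE1, FNDC1, PAM and WNT16, held 1964 CPM (1888 to 2043) of PENK, and 91.3% of them had at least 1 PENK UMI. They were 2.50% of the E90 cells and held 24.4% of its PENK counts. A second fibroblast-like cluster of 57 cells, led by COCH, DKK2 and CXCL12, had 296 CPM (240 to 362), 6.63-fold (5.41 to 8.22) less, and the remaining 82 cells, led by CCN3 and TNMD, had 166 CPM (134 to 203). PENK was itself among the leading genes of the first cluster, though it was left out of the clustering. Unnamed clusters held 55.6% of the E90 PENK counts. Almost wholly from these, the finer clustering set apart 428 fibroblast-like cells, led by PENK, TNFAIP6, SOST and OTOR, with 840 CPM (795 to 887).

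PENK UMIs also occurred in E90 cells of every other class. Endothelial-like cells held 88.6 CPM (61.7 to 123), epithelial-like cells 125 CPM (117 to 132), mast-like cells 247 CPM (193 to 312) and erythroid-like cells 303 CPM (270 to 339). In each of these classes counts of dermal fibroblast marker genes were present as well, and PENK stood at 29.8 to 81.9 counts per 1000 of those marker counts, against 85.8 in the fibroblast-like cells. Free RNA in droplets gives such counts in cells that do not make a transcript, and its part here was not tested. At E60 the endothelial-like level was 12.3 CPM (8.26 to 17.7), 27.6-fold (19.2 to 41.2) below the dermal group, and at E90 that class was 14.0-fold (10.1 to 20.2) below fibroblast-like cells, or 6.94-fold (5.54 to 8.81) in the finer clustering.

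Shares of cells with a PENK UMI showed the same order when every cell was thinned to 2000 UMIs, a depth that all cells of the table reached. At E90, 53.5% of fibroblast-like cells (47.8 to 59.2) had a PENK UMI after thinning and 69.2% before, against 14.4% and 24.7% of endothelial-like cells. Median depth was 6769 UMIs in the former and 3528 in the latter. At E60, 30.3% of dermal cells had one after thinning and 57.5% before, and in endothelial-like cells the shares were 0.714% and 14.3%. Counts were also concentrated within a class: the 10% of E90 fibroblast-like cells with the most PENK held 51.7% of its counts, and single cells reached 131 UMIs at E90 and 206 at E60.

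Most of the few PENK counts of E120 lay in epithelial-like cells, which held 95.8% of them and were 62.3% of the cells. Inner root sheath-like cells, which form the keratinised sleeve that guides the growing hair, held 237 of 287 PENK counts, or 82.6%, while making up 15.3% of the cells. Their level was 13.1 CPM (11.5 to 14.9), against 0.896 CPM (0.627 to 1.24) in hair shaft or matrix-like cells, a ratio of 14.7 (10.3 to 21.5), and 0.219 CPM (0.0265 to 0.791) in basal or outer sheath-like cells. With cells classed by their own markers the ratio to shaft or matrix-like cells was 30.0 (18.2 to 52.4), and basal-like cells held 4.10 CPM against 10.3 CPM in inner root sheath-like cells. A cluster of 550 inner root sheath-like cells led by FGF2, GATA3, WNT11 and FZD10 held 194 counts, 23.3 CPM (20.1 to 26.8), and a cluster of 405 such cells led by KRT27, KRT71 and CASP14 held 43 counts, 5.37 CPM (3.89 to 7.24). Dermal-like cells of the same library were only 224 and held 2 PENK counts, 1.33 CPM (0.161 to 4.80). Both counts lay in the 66 fibroblast-like cells, at 5.40 CPM (0.653 to 19.5). That interval includes the inner root sheath-like level, so the order of these 2 classes is not settled.

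These E120 counts came from few cells. In inner root sheath-like cells 59 of 1054, or 5.60% (4.29 to 7.16), had a PENK UMI, and 1.33% did after thinning. In endothelial-like cells of E120 the shares were 0.541% and 0%, with median depths of 16076 and 6425 UMIs in the 2 classes. The 16 cells of E120 with 5 or more PENK UMIs held 71.4% of the library's PENK. Of them, 12 were inner root sheath-like, 3 hair shaft or matrix-like and 1 unnamed. Their summed inner root sheath markers were at 36442 CPM and their dermal fibroblast markers at 69.7 CPM, their median depth was 16615 UMIs, and 0 of 16 had a doublet score among the top 6%. The highest single cell held 41 PENK UMIs.

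**Figure D2:**
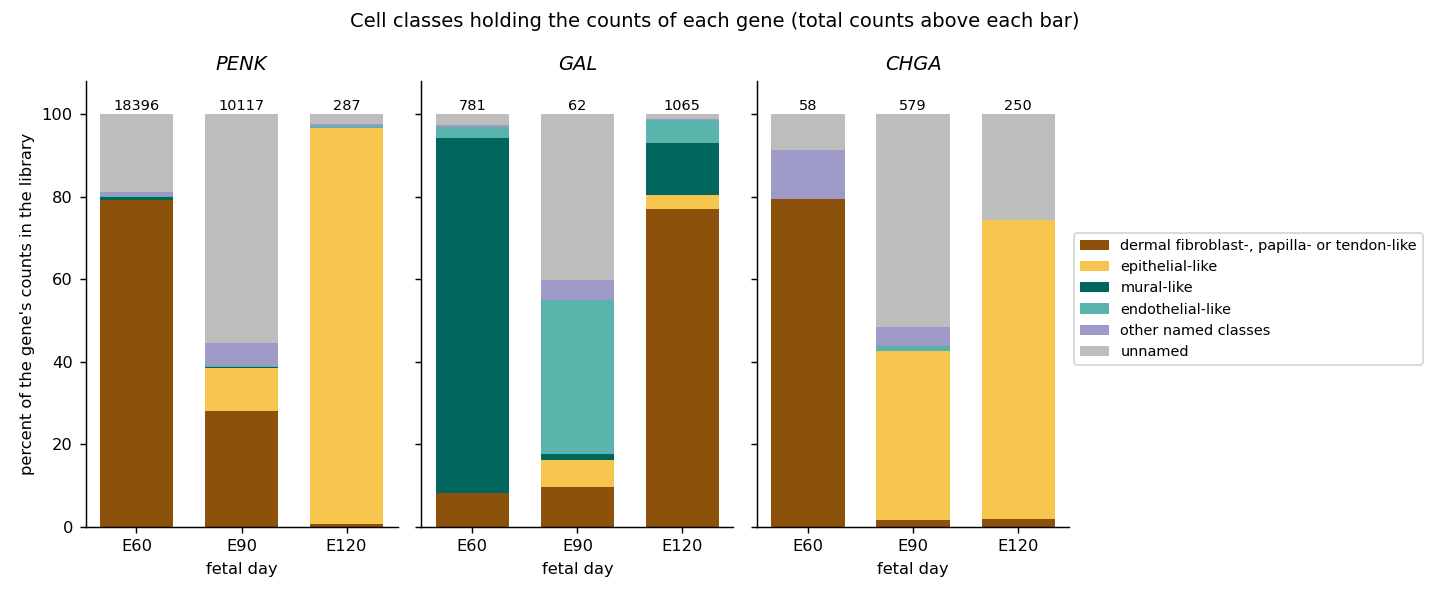
Share of each gene's counts held by cell classes in the 3 libraries, in percent, with the total number of counts above each bar; grey marks unnamed clusters. PENK counts lie mainly in dermal classes at E60 (79.3%, in 66.6% of the cells) and in epithelial classes at E120 (95.8%). GAL counts lie mainly in mural-like cells at E60 (86.0%) and in dermal classes at E120 (77.0%). Epithelial classes hold 40.9% of CHGA counts at E90 and 72.4% at E120, and are 26.0% and 62.3% of the cells. Unnamed clusters hold 51.6% and 25.6% of CHGA counts, and are 57.0% and 26.4% of the cells.

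GAL had 1 main source at E60, the mural-like cells, the smooth muscle cells and pericytes of vessel walls. They were 142 cells, or 2.07% of the library, and held 672 of 781 GAL counts, 86.0%. Their level was 474 CPM (439 to 512), against 9.35 CPM (5.86 to 14.2) in endothelial-like cells and 0.741 CPM (0.492 to 1.07) in dermal fibroblast-like cells, ratios of 50.7 (33.2 to 81.5) and 640 (439 to 971). The latter was 243 (203 to 291) with cells classed by their own markers. The cluster was led by MYH11, RERGL and RGS16 beside GAL itself. In it 34 of 142 cells had doublet scores among the top 6% of E60, and without them the level was 628 CPM. GAL UMIs were found in 84.5% of these cells (77.5 to 90.0) before thinning and in 50.0% after, against 0.500% and 0.200% of fibroblast-like cells, with median depths of 9006 and 8472 UMIs.

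At E90 GAL was scarce, with 62 counts in all. Endothelial-like cells held 23 of them in 97 cells, 58.2 CPM (36.9 to 87.4), and 6 of these counts came from 1 cell. This value was 30.1 CPM when cells under 1000 genes or over 10% mitochondrial counts were left out. Mural-like cells were only 23 at E90 and held 1 count, 9.34 CPM (0.237 to 52.1). The upper end of that interval is below the mural-like levels of E60 and E120, but it rests on those 23 cells. Papilla-like cells of E90 held 3 counts in 187 cells, 3.27 CPM (0.674 to 9.55), and epithelial-like cells 4 counts in 1805 cells.

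At E120 GAL lay in papilla-like cells and again in mural-like cells. The 158 papilla-like cells, led by FGF7, RSPO3, RSPO2 and EDN3, held 816 of 1065 GAL counts, 76.6%, at 719 CPM (670 to 770). The 66 mural-like cells, led by HIGD1B, RGS5 and KCNJ8, held 133 counts at 335 CPM (280 to 397). Endothelial-like cells stood at 20.7 CPM (15.9 to 26.6), fibroblast-like cells at 10.8 CPM (2.94 to 27.6) and epithelial-like cells at 0.523 CPM (0.367 to 0.724). Papilla-like cells held 2.15-fold (1.79 to 2.60) the level of mural-like cells and 1374-fold (984 to 1976) that of epithelial-like cells of the same library. With cells classed by their own markers these ratios were 1.12 (0.919 to 1.37), an interval that includes 1, and 343 (268 to 446), and fibroblast-like cells stood at 50.2 CPM.

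The papilla-like GAL level of E120 was 220-fold (75.0 to 1069) that of papilla-like cells of E90, where 3 counts set the width of the interval. It was 131-fold (36.3 to 1087) by own markers, from 2 counts at E90, and 545-fold (97.5 to 21547) with filtered cells, from 1 count. GAL was in 84.8% of papilla-like cells (78.2 to 90.0) at E120 before thinning and in 60.8% after, and in 1.07% and 0.535% at E90, with median depths of 6020 and 4647 UMIs. Epithelial-like cells of E120 had a GAL UMI in 0.791% before thinning and 0.116% after. When cells were classed from their own markers, 300 cells of E120 were papilla-like and their GAL level was 274 CPM. The ratio of mural-like cells of E60 to those of E120 was 1.42 (1.18 to 1.72), but 0.980 (0.813 to 1.19) by joint clustering (317 and 324 CPM) and 2.66 (2.18 to 3.27) by own markers (653 and 245 CPM), so its direction depended on how cells were classed.

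CHGA had few counts at E60, and at each stage the median cell with a CHGA UMI held 1. The 1% of cells with the most CHGA held 33.2% of its counts at E90 and 48.8% at E120. At E60, 58 counts lay in 54 of 6849 cells, with no cluster above 10.9 CPM, a value of 5 counts in 48 skeletal muscle-like cells. At E90 epithelial-like cells held 40.9% of the counts and were 26.0% of the cells. Unnamed clusters held 51.6% of the counts and were 57.0% of the cells. Basal or outer sheath epithelium-like cells, the keratinocytes that border the basement membrane, held 188 of 579 counts at 36.0 CPM (31.1 to 41.6). Suprabasal-like cells held 15.02 CPM (11.1 to 19.9) and the dermal group 2.94 CPM (1.34 to 5.58). The basal level was 2.40-fold (1.74 to 3.36) the suprabasal and 12.3-fold (6.32 to 27.2) the dermal one. The latter ratio was 3.48 (2.46 to 5.02) in the finer clustering and 2.31 (1.86 to 2.89) by own markers, with the dermal group at 9.15 and 14.6 CPM.

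CHGA UMIs were also found in other classes of E90. Melanocyte-like cells held 21.9 CPM (10.5 to 40.2), myeloid-like cells 20.05 CPM (7.36 to 43.6) and endothelial-like cells 17.7 CPM (7.13 to 36.5), from 10, 6 and 7 counts, and the part of free RNA in these was not tested. The ratio of basal to endothelial-like cells was 2.03 (0.968 to 5.13), whose interval includes 1. Schwann-like and mural-like cells had 0 CHGA counts in 54 and 23 cells, which allows up to 5.56% and 13.0% of cells with a UMI, taking 3 cells as the limit of a count of 0. Shares of cells with a CHGA UMI were 10.9% (9.11 to 12.9) in basal-like cells before thinning and 5.59% after, 6.19% and 2.06% in endothelial-like cells, and 1.80% and 0.802% in the dermal group. Median depths were 3871, 3528 and 5790 UMIs.

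Within E90 epithelium the highest CHGA cluster of the main clustering held 52.5 CPM (39.1 to 69.1) in 148 cells led by TNS4, TAC1, ITGB6 and SEMA3E. In the finer clustering 110 cells, led by TNS4, ITGB6 and SFRP1 and with SEMA3E at 947 CPM, held 70.6 CPM (51.7 to 94.2). An unnamed cluster of 352 cells led by AK8, LHX2 and MYCN, with CHGA itself among its leading genes, held 53.6 CPM (41.9 to 67.5). LHX2 is a transcription factor of early follicle buds and follicle stem cells. The 95% intervals of these 3 values overlapped.

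Merkel-like cells were not the main place of CHGA counts. The finer clustering of E90 gave 1 Merkel-like cluster of 49 cells, led by KRT20, STMN2 and POU4F3, with 418 CPM of KRT20 and 128 CPM of POU4F3, both markers of Merkel cells. It held 7 of 579 CHGA counts, 34.4 CPM (13.8 to 70.9). The 110 cells led by TNS4, in which KRT20 had 0 counts and POU4F3 had 1, stood at 2.05-fold (0.921 to 5.39) of that level, an interval that includes 1. CHGB, the sister granin of CHGA, had 0 counts in all of E90. SCG3, a granin that binds chromogranin A, was at 54.04 CPM in the Merkel-like cells and at 3.07 CPM in the 110 cells led by TNS4. It was not particular to Merkel-like cells. In the main clustering of E90 it was at 66.28 CPM (55.82 to 78.12) in fibroblast-like and 80.89 CPM (56.95 to 111.5) in melanocyte-like cells.

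At E120 CHGA was highest in 1 small group of cells. In the main clustering 264 cells named suprabasal-like from KRT10, KRT1 and other markers held 64 of 250 counts at 44.9 CPM (34.6 to 57.3). The finer clustering divided nearly all of them between 2 clusters. It had 64 counts in 141 cells with ABI3BP, SEMA3E, LMO1 and LGR5 among their leading genes, at 113 CPM (87.1 to 144), and 0 counts in 123 cells led by KRT10, KLK7 and CST6. Against the floor of 3 counts in the latter, the former held at least 31.6-fold more CHGA, and 56.4-fold (41.8 to 75.4) more than all other E120 cells.

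These 141 cells carried KRT5, KRT14, KRT15, TP63, LHX2 and SOX9, markers of basal and outer sheath epithelium, and LGR5, a marker of follicle stem and progenitor cells, at 244 CPM. They were left unnamed because their median depth, 3528 UMIs, was under 1/3 of the library's 13064 and none of the basal markers was among their 10 leading genes. CHGA UMIs were in 21.3% of them before thinning and 12.1% after. KRT20, ATOH1, ISL1, POU4F3 and SOX2, which mark Merkel cells, had 0 counts there. They are part of the Merkel marker list, and its genes KRT8, KRT18, INSM1, PIEZO2 and SYP are not described here. The E120 suprabasal-like CHGA value of the main clustering therefore came from cells that the finer clustering did not name suprabasal.

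Elsewhere in E120 epithelium CHGA was 2.41 CPM (1.51 to 3.65) in basal or outer sheath-like, 1.09 CPM (0.795 to 1.47) in hair shaft or matrix-like and 2.83 CPM (2.10 to 3.72) in inner root sheath-like cells. Basal or outer sheath-like cells of E90 held 14.97-fold (9.60 to 24.5) the level of those of E120. With the 141 cells, which carry basal markers, added to the E120 class, its level was 8.86 CPM and the ratio 4.07 (3.14 to 5.31), and with cells classed by their own markers the ratio was 5.30 (4.14 to 6.83). The clusters behind that class differ, being led by IGFBP6, CCL20 and TNS4 at E90 and partly by mitosis genes such as CCNB2 and ASPM at E120. Over all epithelial-like cells the CHGA level of E90 was 28.0 CPM (24.5 to 31.8) and that of E120 2.63 CPM (2.26 to 3.04). The E120 value was 1.73 CPM with the finer clusters, where the 141 cells are unnamed, and 4.79 CPM when every cell had the same weight. Endothelial-like cells of E120 had 0 CHGA counts in 370 cells, which allows up to 0.811% of cells with a UMI by the same limit of 3 cells.

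**Figure D3:**
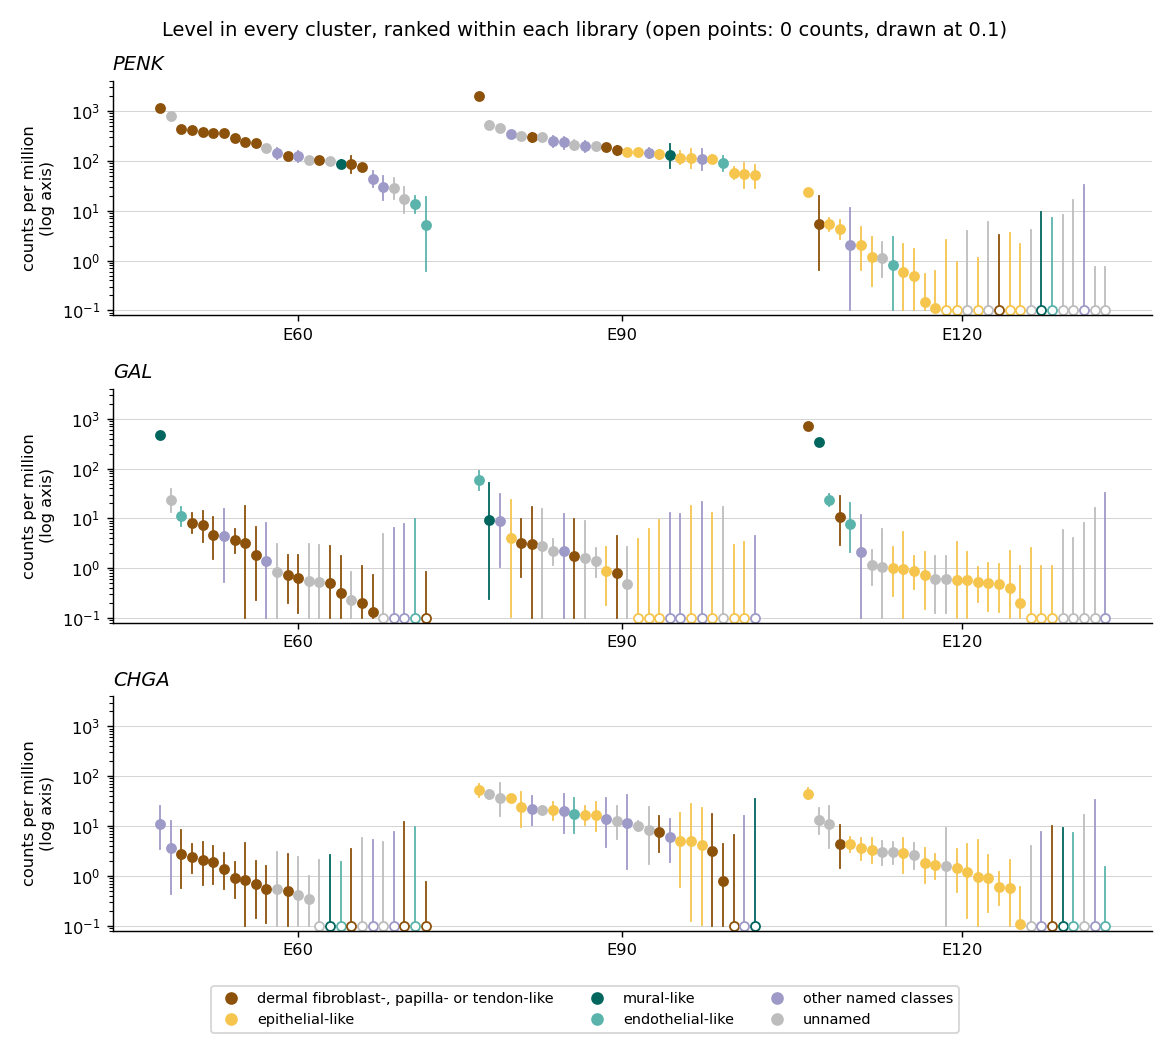
Level of each gene in every cluster of the 3 libraries, in CPM on a log axis, ranked from high to low within a library and coloured by class; lines are 95% Poisson intervals and open points are 0 counts, drawn at 0.1. PENK is at 51.2 CPM or more in all 27 E90 clusters and at 0 in 16 of 29 E120 clusters, whereas GAL exceeds 100 CPM in 1 cluster of E60 and 2 of E120.

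Over all clusters of the main clustering, PENK ranged from 5.20 to 1132 CPM with a median of 124 at E60, from 51.2 to 1964 CPM with a median of 166 at E90, and from 0 to 23.3 CPM with a median of 0 at E120. GAL reached 20 CPM in 2 of 26 clusters of E60, 1 of 27 of E90 and 3 of 29 of E120. CHGA reached 20 CPM in 0, 9 and 1 clusters. PENK reached 20 CPM in 23 of 26 clusters of E60, all 27 of E90 and 1 of 29 of E120. By this measure PENK counts were broad at the first 2 stages and GAL counts were limited to few clusters at each. CHGA reached the level in more clusters at E90 than at the other stages. The part of free RNA in these levels was not tested, so they do not show how many clusters made a transcript.

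**Figure D4:**
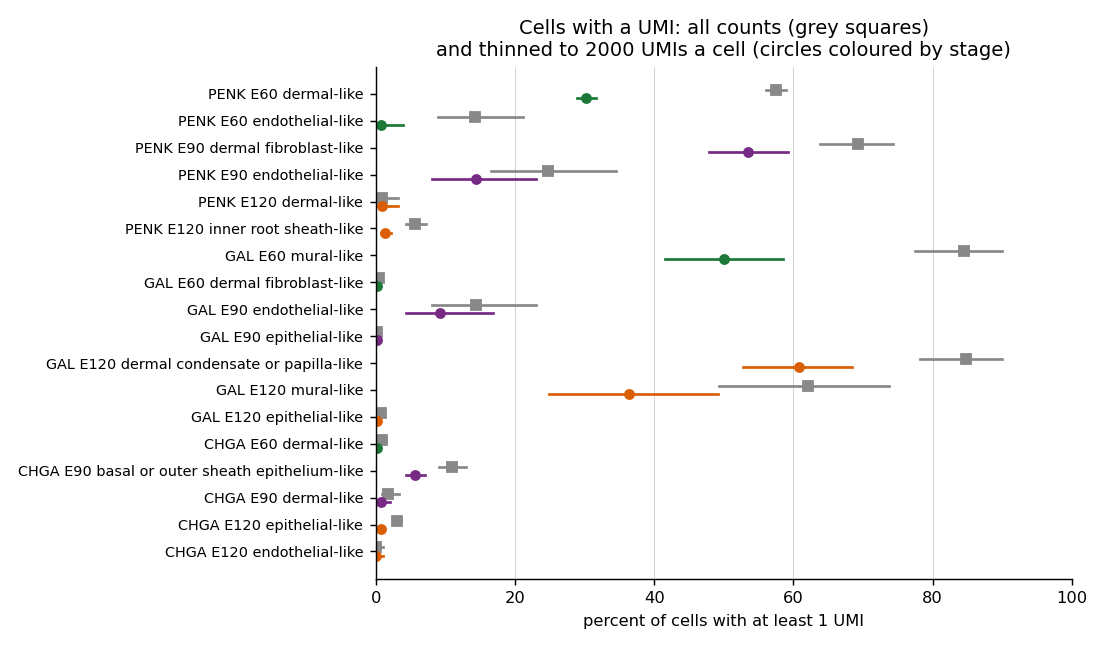
Percent of cells with at least 1 UMI of each gene in selected classes, from all counts (grey squares) and after thinning every cell to 2000 UMIs (circles coloured by stage); lines are 95% binomial intervals. After thinning, the GAL share is 60.8% in papilla-like cells of E120 and 50.0% in mural-like cells of E60, and the PENK share is 53.5% in fibroblast-like cells of E90.

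Detection of 2 of the genes in the same cell was set beside the product of their shares, which gives the number of cells if they were independent. In mural-like cells of E60, 28 of 142 cells had UMIs of both PENK and GAL, where the product of the 2 shares would give 30.4. At E120, 2 cells of 6896 had both, and 3.05 is the product of the shares. PENK and CHGA were both found in 239 of 6931 cells of E90, where the product is 237. GAL and CHGA were both found in 0, 2 and 4 cells of the libraries in stage order, where the products are 1.54, 3.42 and 7.60. Over all E60 cells 52 had PENK and GAL and the product is 105. GAL UMIs lay mainly in mural-like cells there, of which 25.4% had a PENK UMI, against 59.0% of fibroblast-like cells.

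The genes with the pattern most like each gene were sought over the 69 clusters of at least 50 cells, by Pearson correlation of log2(CPM + 1) among genes that reached 20 CPM in any of them. For PENK these were DCLK1 (r = 0.94), a microtubule-linked kinase, OTOR (r = 0.92), LRRC17 (r = 0.90) and OGN (r = 0.90), a small proteoglycan that was also a fibroblast marker here, with 1 gene known only by its Ensembl identifier between them. For GAL the nearest were C1QTNF5 (r = 0.80) and ITGA1 (r = 0.70), an integrin chain that binds collagen and laminin, and 3 genes with identifiers only. For CHGA they were FREM2 (r = 0.82), a basement membrane protein of epithelia, TMEM114 (r = 0.80) and FRAT1 (r = 0.80), with 2 identifiers only. Clusters of 1 stage share a library and its depth and free RNA, so these values describe the clusters and are no test. Under other filters and the finer clusters 3 to 5 of the 5 genes were kept for PENK, 2 to 4 for GAL and 1 to 4 for CHGA.

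The delta opioid and galanin receptors had few counts. The opioid receptor genes OPRM1, OPRK1 and OPRL1 are not among the genes of the table analysed here. OPRD1, the delta opioid receptor to which enkephalins bind, had 3 counts in all 3 libraries together. OGFR, the opioid growth factor receptor, was detected widely, at 56.5 CPM (54.1 to 58.9) in fibroblast-like cells of E60 and 37.3 CPM (29.6 to 46.5) in those of E90. The galanin receptors GALR1, GALR2 and GALR3 had 17, 45 and 197 counts. GALR3 was highest in basal or outer sheath-like cells of E120 at 7.55 CPM (5.88 to 9.56). PNOC, the precursor of the opioid-related peptide nociceptin, was at 735 CPM (701 to 771) in endothelial-like cells of E60 and at 1.08 CPM in fibroblast-like cells of that library.

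Genes that process peptide precursors were present in part of the classes that held PENK or GAL. Whether they lay in the same cells as PENK or GAL was not tested. PCSK1, the convertase that cuts proenkephalin in endocrine cells, had 1 count in 3998 fibroblast-like cells of E60 and 4 in 312 of E90. It was at 127 CPM (120 to 135) in basal or outer sheath-like cells and 105 CPM (101.8 to 108.2) in hair shaft or matrix-like cells of E120. In 54 Schwann-like cells of E90 it was at 199 CPM (146 to 266). PCSK5, a convertase of the constitutive secretory route, was at 65.8 CPM (63.3 to 68.5) in fibroblast-like cells of E60 and at 122 CPM (102 to 144) in papilla-like cells of E120. CPE, the carboxypeptidase that trims the cut peptides, was at 54.6 CPM (41.9 to 70.0) in those papilla-like cells and at 15.5 CPM (9.73 to 23.5) in mural-like cells of E60. PAM, the enzyme that amidates peptides such as galanin, was at 203 CPM (184 to 222) in fibroblast-like cells of E90, and it was a leading gene of the PENK-high E90 cluster. Among GAL-bearing classes, endothelial-like cells of E90 had PAM at 157 CPM (120 to 201), an interval that overlaps the fibroblast-like one. In endothelial-like cells of E120 it was at 71.4 CPM (62.0 to 81.7). PAM was lower still at 42.29 CPM (31.18 to 56.06) in papilla-like cells of E120 and 22.58 CPM (15.45 to 31.88) in mural-like cells of E60. In mural-like cells of E120 PAM had 3 counts, 7.55 CPM. Inner root sheath-like cells, where most PENK counts of E120 lay, had little of these genes. PCSK1 was there at 6.27 CPM, PCSK5 at 1.89, CPE at 0.111 and PAM at 0.388. Tendon or cartilage-like cells of E60 had PCSK5 at 185.5 CPM, CPE at 69.9 and PAM at 13.1, and held 1 PCSK1 count. ANPEP, an aminopeptidase that degrades enkephalins, was at 269 CPM (264 to 274) in fibroblast-like cells of E60, at 264 CPM (242 to 286) in those of E90 and at 64.8 CPM (41.5 to 96.3) in those of E120.

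Counts of listed genes that differed 2-fold or more between dermal groups of E90 and E120 can be read against all genes with at least 20 CPM in either, of which 28.0% differed so, 11.1% being higher and 16.9% lower at E120. PENK was lower and GAL higher at E120, differences that helped choose these genes. For PENK the dermal log2 ratio of E90 to E60 was 1.44, past 2-fold as were 36.6% of all genes (30.0% higher and 6.62% lower at E90), but 0.70 by median of ratios. Of the 2834 dermal PENK counts of E90, 2470 lay in the cluster led by CCBE1. Of the 10 processing genes listed by the table, 7 reached 20 CPM there, and PCSK5, PCSK6, CPE and QPCT were higher and PAM lower at E120, with a list median of 1.04 on the log2 scale against -0.11 over all genes. Of 9 peptidases 4 reached 20 CPM, with ECE1 higher and ANPEP lower. Of the 16 other neuropeptide genes that the table lists, 5 did, with ADM, PTHLH and EDN3 higher and CCK and EDN1 lower. EDN3, encoding endothelin 3, was at 744 CPM (694 to 795) in the GAL-bearing papilla-like cells. Of 14 receptors of other peptides 5 reached 20 CPM, with RAMP2 and EDNRB higher and CALCRL and PTH1R lower. Papilla-like cells were 158 of 224 cells of that group at E120 and 187 of 499 at E90. Scaling by the median of ratios added CPZ to the higher genes and removed PTH1R from the lower ones.

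In epithelial-like cells, where 36.1% of all genes differed 2-fold or more between E90 and E120 (11.6% higher and 24.4% lower at E120), 3 of 4 processing genes at 20 CPM were lower at E120 (CPD, PAM and QPCT) and PCSK1 was higher. The neuropeptide genes TAC1, PTHLH and NPPC were lower at E120 in the epithelial sum, but in suprabasal-like cells PTHLH was higher at E120, with 267 CPM (241 to 295) against 39.9 CPM (33.3 to 47.3) in those of E90. That E120 class belongs to the main clustering and includes LGR5-bearing cells, described above, that the finer clustering did not name suprabasal. How its PTHLH counts divided between these and the KRT10 cells is not given here. TAC1, the substance P precursor, stood at 63.3 CPM (56.6 to 70.5) in the E90 basal-like cells that also held the most CHGA. Of the granins CHGA alone reached 20 CPM in these cells and was lower at E120, with a log2 ratio of -3.00, and -2.46 by median of ratios. In dermal groups, SCG3 and PCSK1N reached 20 CPM, with SCG3 higher and PCSK1N lower at E120. SCG3 was at 154 CPM (132 to 179) in papilla-like cells of E120 and at 28.3 CPM (18.5 to 41.5) in those of E90. In fibroblast-like cells it went the other way, with 21.6 CPM (9.32 to 42.5) at E120 and 66.3 CPM (55.8 to 78.1) at E90.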

How the data were processed

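The genes and lists were chosen with earlier results of these data known. Skin cells of 3 libraries (E60, E90, E120) were analysed. The deposited values are natural log values: as the table itself shows, the authors scaled every cell to a total of 10000, added 1 and took the natural log. Reads were processed with Cell Ranger 3.0.2, per the submitters' processing notes. Genome build, annotation and cell filters are not given in the sources used here. UMI counts were recovered by inversion, and 100% of nonzero values came out whole within 0.01 on the assumption that the lowest value of a cell is 1 UMI. The planned analysis had assumed counts, and the sums are of recovered counts. The design text states 19705 cells, and the table held 20676, all of which were used. Of 12709 symbols 11897 were found in the RefSeq list of assembly ARS1.2, including all 3 genes, which was used for names only.

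Cells of each library were clustered with 2000 variable genes, 30 principal components, 20 neighbours and Leiden resolution 1 (leidenalg 0.10.2, igraph 0.11.9, scikit-learn 1.9.0, Python 3.11.15), leaving out the 3 genes and the listed genes. A class needed 3 found markers, each in 10% of cells and at 2 times its level at the 20th percentile of clusters. The scoring was chosen after looking at the data. Clusters led by 3 or more mitochondrial or haemoglobin genes, close to a second class, led by another class's markers, or under 1/3 of the library's median depth with none of their class's markers among the 10 leading genes, stayed unnamed. Doublets were scored against simulated ones and removed in an alternative only, as the 6% of cells with the highest scores. The recovery of counts, the log2 ratios and the Poisson intervals were tested on simulated data, but the clustering, class names and doublet scores were not. Counts were summed per class and given as CPM, with a pseudocount of 1 in log2 ratios. Text names the 3 genes, list genes that reached 20 CPM in a class of at least 50 cells or whose absence is stated, and the 5 genes nearest to each.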

Additional observations from a re-analysis of the deposited data

Results flagged for a closer look

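Some cell classes of these libraries differed in opposite directions under the same comparison of stages. With 1 library per stage the difference between classes was not tested. All values are log2 ratios of CPM + 1.

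For GAL at E90 against E60, endothelial-like cells had 2.52 (9.35 CPM at E60 and 58.2 CPM at E90) and mural-like cells -5.52 (474 CPM and 9.34 CPM). The E90 mural-like value is 1 count in 23 cells. For GAL at E120 against E90, dermal condensate or papilla-like cells had 7.40 (3.27 CPM and 719 CPM) and endothelial-like cells -1.45 (58.2 CPM and 20.7 CPM). With filtered cells the E90 endothelial-like value was 30.1 CPM from 5 counts, 1.44-fold (0.450 to 3.54) that of E120. For GAL at E120 against E60, papilla-like cells had 7.41 (3.22 CPM from 1 count in 41 cells, and 719 CPM) and mural-like cells -0.50 (474 CPM and 335 CPM). The direction in mural-like cells was not kept by joint clustering, which gave 317 CPM at E60 and 324 CPM at E120.

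For CHGA at E120 against E90, suprabasal-like cells had 1.52 (15.02 CPM and 44.9 CPM) and basal or outer sheath-like cells -3.44 (36.0 CPM and 2.41 CPM). In the finer clustering the E120 suprabasal-like cluster led by KRT10 had 0 CHGA counts, so the first of these values belongs to the main clustering. The 141 cells that held those counts carry basal markers, and with them the E120 basal or outer sheath-like level was 8.86 CPM in place of 2.41 CPM.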

How the results depend on the processing

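Leaving out a replicate was not possible with 1 library per stage. No paired analysis was possible because no stage had a second library and no test was made. Of the recomputed levels, stage ratios and shares 43 stayed within their counting interval, 58 moved outside it and 1 reversed. Of ratios between classes 85 stayed, 23 moved and 1 reversed, the mural-like GAL ratio of E60 to E120, which was 0.9804 by joint clustering.

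The log2 ratio of PENK at E90 against E60 was -0.28 by median of ratios, 0.53 with filtered cells (at least 1000 genes, at most 10% mitochondrial counts) and 0.18 with equal cell weights. At E120 against E90 PENK was -5.92 by median of ratios, -4.72 and -6.72 with pseudocounts of 10 and 0.1 CPM, and -6.61 with filtered cells. GAL at E90 against E60 was -2.48, -0.87 and -2.50 under the same scaling and pseudocounts, and at E120 against E90 it was 2.37, 0.83 and 2.42, and 2.89 with equal weights. CHGA was 3.01, 1.42 and 4.28 at E90 against E60, and -2.03, -1.20 and -2.79 at E120 against E90, where equal weights gave -2.06.

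With resolution 2, 1 joint clustering, classes from each cell's own markers and without top doublet scores, dermal PENK at E60 was 326, 313, 306 and 348 CPM. At E90 dermal PENK was 622 CPM by own markers, 979 with filtered cells and 796 with equal weights. Inner root sheath-like PENK at E120 was 10.3 CPM by own markers. Mural-like GAL at E60 was 317 CPM by joint clustering, 653 by own markers, 628 without top doublet scores and 519 with equal weights, and at E120 245 by own markers. Endothelial-like GAL at E90 was 30.1 CPM with filtered cells. Papilla-like GAL at E120 was 579, 274, 785 and 779 CPM by joint clustering, own markers, without top doublet scores and with equal weights. Epithelial-like CHGA at E120 was 1.73 CPM at resolution 2, 1.87 by joint clustering and 4.79 with equal weights. The cause of these moves was not tested.

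Thinned to 1000 UMIs and unthinned, the share of cells with PENK was 20.3% and 57.5% in dermal-like cells of E60, 30.7% and 57.7% at E90, and 0.664% and 5.60% in inner root sheath-like cells. For GAL it was 33.1% and 84.5% in mural-like cells of E60, 24.2% and 62.1% in those of E120 and 40.5% and 84.8% in papilla-like cells of E120, and 3.09% in endothelial-like cells of E90 at 1000 UMIs. For CHGA it was 3.30% and 10.9% in basal-like cells of E90 and 0.349% and 3.10% in epithelial-like cells of E120.

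Median-of-ratios scaling of classes and lists, the E120 basal class with the 141 cells added and the E90 fibroblast-like cells without the CCBE1 cluster were chosen after seeing the data. The scaling moved the share of higher genes among those differing 2-fold from 67.2% to 31.0% in whole libraries (E90 against E60) and from 33.3% to 60.9% (E120 against E90). In dermal-like cells it moved from 81.9% to 38.0%, 39.7% to 51.5% and 70.9% to 39.4% (E90 against E60, E120 against E90, E120 against E60), and in epithelial-like cells from 32.3% to 66.0%. Of the 5 nearest genes, a 50 CPM filter, no filter and resolution 2 kept 4, 5 and 3 for PENK, 3, 2 and 4 for GAL and 1, 4 and 2 for CHGA.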
